A study of Zea mays subsp. mays with 2 samples.

Results

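Positions of the maize genome at which 3 or more transcribed loci lie together were compared between shoots and roots. The table of the study lists assembled loci, each with the genomic interval it was assigned to, and several loci can carry exactly the same interval. A position was taken as such an interval on chromosomes 1 to 10, and those listed for 3 or more loci were kept, without regard to level. They are called crowded positions here. This gave 367 of 26802 positions (1.37%), which held 1291 of the 29627 loci of these chromosomes (4.36%). The count of loci at a position depends on the table's own filter, since a locus is listed only if it exceeds 1 FPKM in the shoot or the root. FPKM is a level per transcript length, the count of sequenced fragments scaled by transcript length and by library size.

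The plants were of the inbred line B73, from which the reference sequence of maize was made. Both groups came from plants harvested 14 days after germination with no treatment stated, and polyadenylated RNA of shoots and of roots was sequenced as 1 paired-end library per tissue without strand information. The table gives no total counts, but the steps of its low values put about 113 shoot fragments and 131 root fragments behind 1 FPKM on 1000 effective bases. An exact 95% Poisson interval, which covers counting error only, then runs from 0.824 to 1.20 FPKM in the shoot and from 0.836 to 1.19 FPKM in the root. The fragment counts were fitted on 113 low loci of the shoot and 171 of the root. Error of that fit is not part of the interval. How many fragments stand behind a locus at a shared position could not be estimated, because the interval is that of the whole position and not of the transcript. With 1 library per tissue, the spread between plants was not measured, and no p-value was computed.

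Eukaryotic genes can overlap in several ways. A transcript of one strand can run across a neighbour on the other strand as natural antisense RNA, a small gene can lie within an intron of a larger one, and pieces of unspliced precursor RNA can be assembled as separate loci inside the gene they belong to. Maize introns often hold transposable elements, so a gene can extend over a long stretch of genome and take in other transcribed units. Transcript assemblers group overlapping units into one interval, and in a library without strand information the reads of overlapping units are divided between them by a model. Every level given here for a locus at a shared position carries that uncertainty. The loci have assembly numbers and no gene names, so they are described by position, in coordinates of B73 RefGen_v2 as deposited.

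Most of these positions held the smallest number of loci that the definition allows. There were 255 positions with 3 loci, 68 with 4, 25 with 5, 11 with 6, 3 with 7, 4 with 8 and 1 with 10. Just below the definition lay 1901 positions with 2 loci. The positions were spread over all 10 chromosomes, from 1.06% of the positions of chromosome 3 to 1.68% of those of chromosome 2. In 8 cases, 2 of them were direct neighbours along a chromosome, with no other listed position between them.

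The loci at these positions had lower levels than the table as a whole. Their median was 5.03 FPKM in the shoot, between quartiles of 2.13 and 14.7, and 4.30 FPKM in the root, between quartiles of 1.59 and 14.1. Over all loci of the table the medians were 9.84 FPKM in the shoot and 9.19 FPKM in the root. The 1291 loci held 1.33% of the summed FPKM in the shoot and 1.28% in the root, against 4.36% of the loci. Of them, 1031 (79.9%) reached 1 FPKM in both tissues, 184 (14.3%) in the shoot only and 76 (5.89%) in the root only. The corresponding shares of the whole table were 83.3%, 10.3% and 6.48%.

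The order of the locus numbers set one kind of locus apart. Within every chromosome the numbers ran along the sequence from one end to the other 3 times over, apart from 1 small step back on chromosome 7 and 1 on chromosome 9. Programs of the Cufflinks family generally number merged loci strand by strand within a chromosome and place those of undetermined strand last. The table gives no strand, and whether the runs follow it was not tested, so they are called run 1, run 2 and run 3. Over chromosomes 1 to 10, run 1 held 13265 loci (44.8%), run 2 held 13131 (44.3%) and run 3 held 3231 (10.9%).

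Run 3 made up far more of the loci at crowded positions. It held 1577 of the 24534 loci alone at their position (6.43%), 1001 of the 3802 loci at positions with 2 loci (26.3%), and 653 of the 1291 loci at positions with 3 or more (50.6%). Seen from the other side, 20.2% of all run 3 loci lay at a position with 3 or more loci, against 638 of 26396 loci of runs 1 and 2 (2.42%). At least 1 locus of run 3 was present at 294 of the 367 positions (80.1%) and at 996 of the 1901 positions with 2 loci (52.4%). No test was made of these shares, since loci of one position are not independent.

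**Figure D1:**
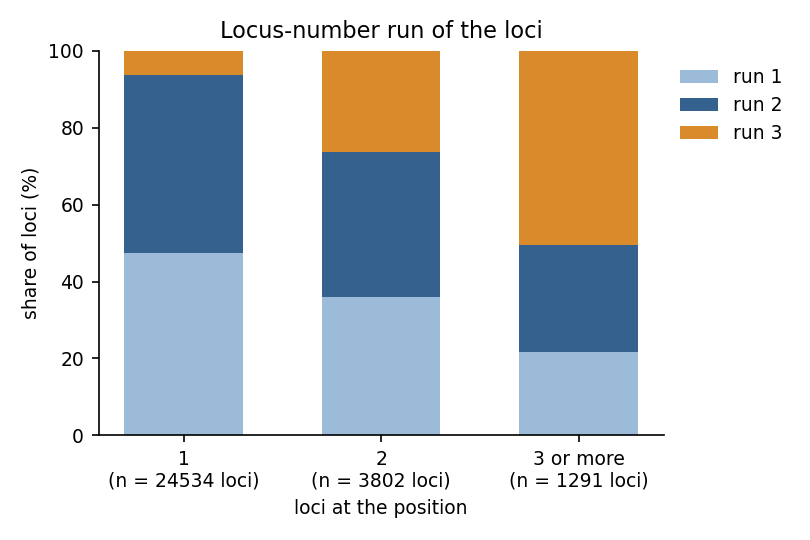
Share of loci (%, vertical axis) in each run of locus numbers, for loci on chromosomes 1 to 10 at positions with 1, 2 or 3 or more loci; each bar sums to 100%. Run 3 takes 6.43%, 26.3% and 50.6% of the loci from left to right.

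Loci of run 3 were the weaker partners. At crowded positions their median was 2.80 FPKM in the shoot and 2.10 FPKM in the root, while the 638 loci of runs 1 and 2 there had medians of 12.6 FPKM in the shoot and 11.4 FPKM in the root. In the whole table the shoot and root medians were 11.5 and 10.6 FPKM for run 1, and 11.1 and 10.6 FPKM for run 2. For run 3 they were 2.93 and 2.40 FPKM. Loci of runs 1 and 2 at crowded positions were thus not lower than those runs in the table. Of the 367 highest loci by mean FPKM of the tissues, 30 (8.17%) were of run 3, compared with 221 of the second highest (60.2%) and 275 of the lowest (74.9%). Run 3 loci alone at their position were low as well, with a median of 2.73 FPKM in the shoot.

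The commonest arrangement was 1 locus of run 1 or run 2 with all others from run 3. It was found at 234 positions (63.8%). The main locus there had a median of 15.1 FPKM in the shoot and 14.3 FPKM in the root, and the 563 accompanying loci had medians of 2.87 FPKM in the shoot and 2.17 FPKM in the root. An accompanying locus stood at a median of 18.8% of the level of its main locus, with quartiles of 11.6% and 31.0%, and 540 of the 563 (95.9%) were below it.

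The other arrangements were rarer and longer. Runs 1 and 2 without run 3 made up 68 positions (18.5%), and 45 positions (12.3%) held loci of all 3 runs. Another 15 positions (4.09%) joined several loci of run 1, or several of run 2, with run 3. All loci came from 1 run at 5 positions (1.36%), 4 of them with run 2 alone and 1 with run 1 alone.

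The positions were longer than those with fewer loci. The span, counted as end minus start with introns included, had a median of 10529 bases and quartiles of 6046 and 29358. It had a median of 6143 bases at positions with 2 loci and 3192 bases at positions with 1. Within the set the median span was 8980 bases with 3 loci, 12032 with 4, 16815 with 5 and 56322 with 6 or more. Per locus, the median span was 3099 bases, beside 3072 at positions with 2 loci and 3192 at positions with 1. Within the set it was 2993 bases per locus with 3 loci, 3008 with 4, 3363 with 5 and 7210 with 6 or more, so the 19 positions with the most loci were longer per locus as well. Number of loci and span had a Spearman coefficient of 0.27 over the 367 positions. It is given as a description, and how span and number of loci depend on each other was not tested.

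Span differed between the arrangements. Positions with 1 locus of run 1 or 2 and the rest from run 3 had a median span of 7510 bases, those with runs 1 and 2 only 25218 bases, and those with all 3 runs 43675 bases. In all, 119 of the 367 positions (32.4%) spanned more than 20000 bases and 31 (8.45%) more than 100000 bases. At positions with 1 locus the same shares were 3.66% and 0.126%. The 367 intervals covered 12.2 Mb together, and none of them overlapped the interval next to it.

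**Figure D2:**
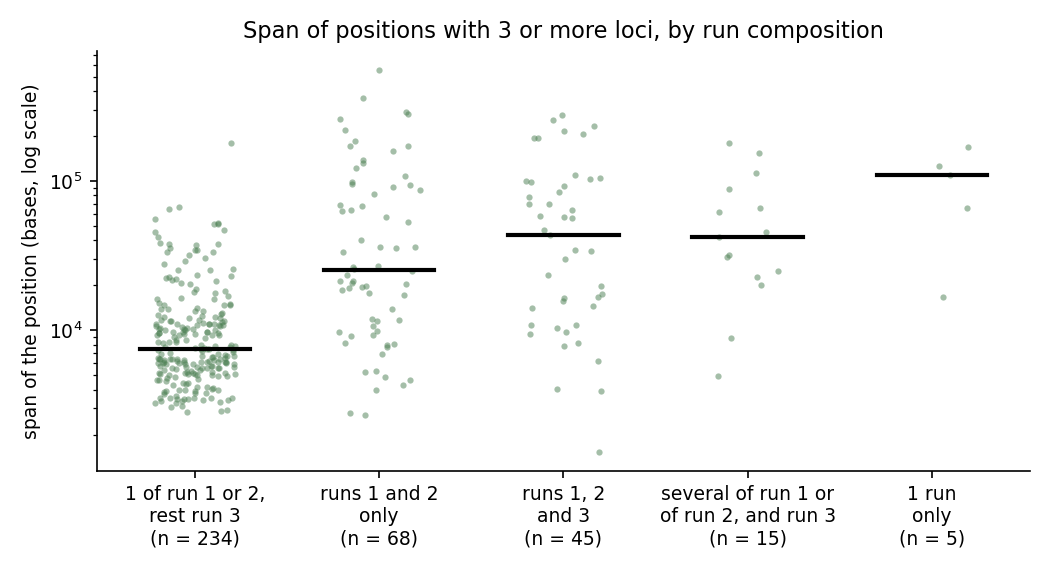
Span of each of the 367 positions (bases, log scale) by the runs its loci belong to; points are positions and black bars are medians. The median is 7510 bases where 1 locus of run 1 or 2 stands with run 3 alone, and 43675 bases where all 3 runs are present.

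The 5 longest positions held 3 to 8 loci. The longest of all, on chromosome 2 from 226962740 to 227516912, spanned 554172 bases with 3 loci, at 15.2, 11.7 and 6.62 FPKM in the shoot and 9.84, 13.1 and 5.72 FPKM in the root. The next longest lay close by on chromosome 2, from 227600640 to 227957101, with 3 loci over 356461 bases. Its highest locus was at 27.2 FPKM in the shoot and 35.0 FPKM in the root, and its weakest at 0.0179 FPKM in the shoot and 2.40 FPKM in the root. On chromosome 5, from 91340359 to 91614754, 4 loci shared 274395 bases and had near-equal levels in the tissues, with the highest at 31.5 FPKM in the shoot and 30.0 FPKM in the root. A position on chromosome 1 from 60675788 to 60967030 held 8 loci over 291242 bases, at 0.524 to 21.2 FPKM in the shoot and 1.39 to 39.5 FPKM in the root. One on chromosome 9 from 92311375 to 92592822 held 6 loci over 281447 bases, at 11.8 to 135 FPKM in the shoot and 4.81 to 177 FPKM in the root. Neither of these 2 held a locus of run 3. At the other end, the shortest position, on chromosome 4 from 175273002 to 175274541, held 1 locus of each run in 1539 bases. Its loci were at 3.66, 1.67 and 0.744 FPKM in the shoot and 7.68, 3.62 and 1.33 FPKM in the root, so all were higher in the root, by 2.10-fold, 2.16-fold and 1.78-fold without a pseudocount.

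Most of the FPKM of a position usually lay in 1 locus. By the mean of the tissues, the highest locus held a median of 65.2% of the summed FPKM of its position, with quartiles of 52.7% and 75.9%. The second locus held a median of 19.8% and the third 10.5%. Taken within each tissue, the highest locus held a median of 64.2% in the shoot and 67.6% in the root. At positions with 2 loci, where the share cannot be under 50%, the median was 80.1%. FPKM is scaled to length, so these are shares of level and not of fragments.

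The share was smaller where more loci were present. Its median was 67.5% with 3 loci, 63.0% with 4, 53.8% with 5 and 45.4% with 6 or more. The lowest share possible falls as loci are added to a position, and no allowance was made for their number. The highest locus held more than 90% at 14 positions (3.81%) and less than 50% at 70 (19.1%). It was the same locus in the shoot and root at 313 of the 366 positions with a value above 0 in both tissues (85.5%), against 1682 of 1900 positions with 2 loci (88.5%).

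**Figure D3:**
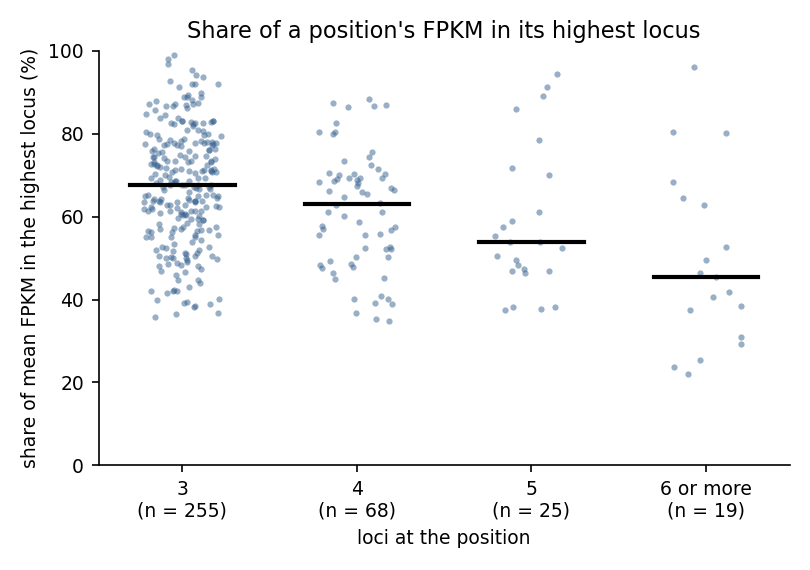
Share of a position's FPKM (mean of shoot and root, %, vertical axis) held by its highest locus, for positions with 3, 4, 5 and 6 or more loci; points are positions and black bars are medians. The median goes from 67.5% with 3 loci to 45.4% with 6 or more, and single positions lie between 22.1% and 98.9%. The lowest share possible is smaller where there are more loci.

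The most lopsided position was on chromosome 4 from 70727583 to 70734168. Its highest locus, of run 2, was at 453 FPKM in the shoot and 249 FPKM in the root, or 98.9% of the mean level. Both other loci, of run 3, were at 3.53 and 2.48 FPKM in the shoot and 0.995 and 0.772 FPKM in the root. A locus of run 3 was dominant on chromosome 6 from 153127609 to 153138000, where it stood at 1488 FPKM in the shoot and 735 FPKM in the root. The other loci there were at 19.8 and 3.08 FPKM in the shoot and 18.6 and 2.65 FPKM in the root.

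The most even position was on chromosome 9 from 18983466 to 19015504, with 2 loci of run 2 and 4 of run 3. Its 6 loci ranged from 1.22 to 2.79 FPKM in the shoot and from 0.732 to 2.02 FPKM in the root, and the highest held 22.1%. All 6 were higher in the shoot, with log2 ratios from -0.53 to -0.10. Here and below, the log2 ratio is log2((root FPKM + 1) / (shoot FPKM + 1)), which is above 0 for a locus higher in the root and understates the difference of low loci. On chromosome 2, from 172703511 to 172709747, the highest of 6 loci held 23.7%, and all 6 were higher in the root. That highest locus, of run 1, was at 3.63 FPKM in the shoot and 14.6 FPKM in the root, and the next, of run 3, at 3.46 and 13.8 FPKM.

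Differences of 4-fold or more between the organs were less common among these loci than in the table. The call was a 4-fold ratio, or 2 in absolute log2 ratio. By this call 58 of the 1291 loci (4.49%) were higher in the shoot, against 6.79% of all loci in the table, and 24 (1.86%) were higher in the root, against 3.52%. Levels were lower among these loci too, and the pseudocount limits the ratio a low locus can reach. For run 3, 17 of 653 loci at crowded positions (2.60%) were higher in the shoot and 7 (1.07%) higher in the root, against 4.89% and 3.10% of all run 3 loci. For runs 1 and 2 together, 41 of 638 loci (6.43%) were higher in the shoot and 17 (2.66%) higher in the root, beside 7.03% and 6.97% of all loci of runs 1 and 2 higher in the shoot and 3.45% and 3.70% higher in the root. The part of level in these differences was not tested. At a 2-fold ratio the shoot share was near that of the table, with 209 loci (16.2%) higher in the shoot, against 15.0%, and 117 (9.06%) higher in the root, against 11.9%. At 8-fold, 23 loci (1.78%) were higher in the shoot, against 3.50%, and 8 (0.620%) higher in the root, against 1.28%. With a pseudocount of 0.1, which holds low loci back less, 131 loci (10.1%) were called higher in the shoot, against 10.9% of the table, and 52 (4.03%) higher in the root, against 6.38%. With one of 5 the counts were 27 (2.09%), against 3.61%, and 10 (0.775%), against 1.40%. When loci under 5 FPKM in both tissues were left out, 398 loci remained at positions with 3 or more, and the shares lay nearer to those of the table. Of these, 30 (7.54%) were higher in the shoot, against 8.82% of the table's loci past the same filter, and 17 (4.27%) higher in the root, against 4.59%. Leaving out loci listed at 0 gave 50 of 1272 (3.93%), against 6.53%, and 22 (1.73%), against 3.40%, and root divided by 1.07, the median root to shoot ratio of loci at 1 FPKM or more in both tissues, gave 60 (4.65%), against 7.06%, and 22 (1.70%), against 3.22%.

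The median log2 ratio was -0.11 over the 1291 loci and 0.06 over the whole table. It was -0.26 for run 3 loci at crowded positions and 0.04 for the loci of runs 1 and 2 there. In the whole table, run 3 had a median of -0.20. When root values were divided by 1.07, the median of the table moved by -0.09 and the order of these medians stayed as it was, with -0.34 for run 3 and -0.06 for runs 1 and 2 at crowded positions.

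Within a position the loci often leaned toward the same organ. All loci had a log2 ratio on the same side of 0 at 174 of the 367 positions (47.4%), of which 105 were higher in the shoot throughout and 69 higher in the root throughout. After the division of root by 1.07 the split was 128 and 58. Counted by pairs of loci, 1221 of 1808 pairs within a position (67.5%) lay on the same side, beside 1276 of 1901 at positions with 2 loci (67.1%). The distance between the highest and lowest log2 ratio of a position had a median of 0.91, with quartiles of 0.53 and 1.44. It was under 1, or 2-fold, at 202 positions (55.0%) and at 2 or more at 52 (14.2%). At positions with 2 loci the median distance was 0.46, with 77.6% of positions under 1 and 8.26% at 2 or more. With more loci the distance was wider, with a median of 0.77 for 3 loci and 1.48 for 6 or more. This distance can only widen as loci are added to a position, and no allowance was made for their number.

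At most positions the highest locus differed less in log2 ratio from the second locus there than from the highest locus next door. Runs were not told apart in this comparison. The log2 ratios of the highest and the second locus differed by a median of 0.47, with quartiles of 0.21 and 0.94. Between the highest locus and the highest locus of the nearest other position, which lay a median of 15518 bases away, the difference was 0.78, with quartiles of 0.33 and 1.72. The difference within the position was the smaller one at 230 of 367 positions (62.7%). Positions with 2 loci gave 0.46 within and 0.77 to the neighbour, and 1202 of 1901 (63.2%) had the smaller difference within. Second loci were lower in level than the neighbours, at medians of 5.04 and 11.5 FPKM, and low levels draw ratios together on this scale. With a pseudocount of 0.1 the medians were 0.58 within and 0.90 to the neighbour, and 222 positions (60.5%) had the smaller difference within. Over the 367 positions the log2 ratios of the highest and the second locus had coefficients of 0.62 (Pearson) and 0.50 (Spearman). This is a description only, since the loci share a library and may share reads.

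**Figure D4:**
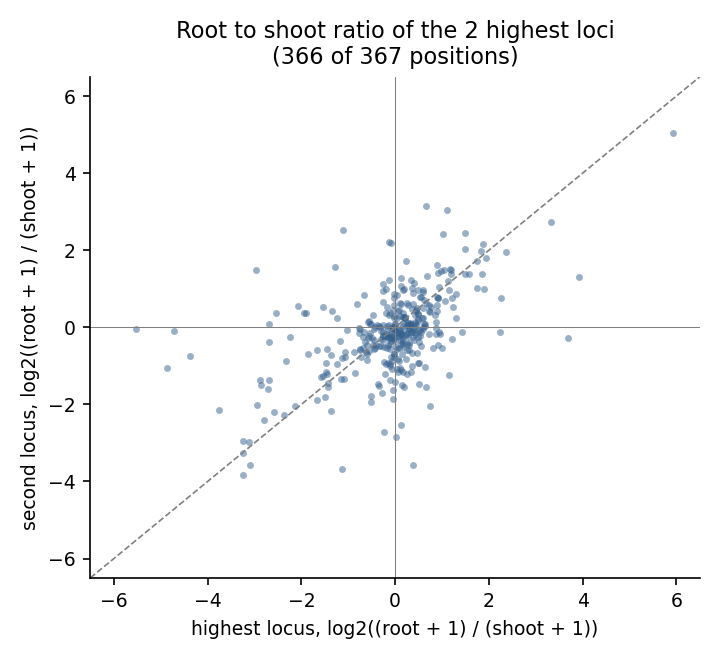
Log2 ratio of root to shoot (pseudocount of 1) of the highest locus (horizontal axis) and of the second locus (vertical axis) at 366 of the 367 positions; each point is a position, the dashed line marks equal ratios, and 1 position listed at 0 in the root lies outside the axes. Of the 367 positions, 238 have both loci on the same side of 0.

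Agreement differed between kinds of pairs. Pairs within run 3 were closest, with a median difference in log2 ratio of 0.38 over 514 pairs, 77.6% of them on the same side of 0. Pairs of a run 1 or run 2 locus with a run 3 locus differed by a median of 0.50 over 795 pairs, with 65.9% on the same side, and pairs of run 1 with run 2 by 0.59 over 282 pairs, with 63.5%. Pairs within run 1 or within run 2 were farthest apart, at 0.76 over 217 pairs, with 54.8%. Levels moved with this order, as the lower locus of a pair had a median mean FPKM of 1.87 within run 3 and 4.75 within run 1 or run 2. Large positions give many of the pairs, and no test was made.

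Accompanying run 3 loci leaned more toward shoot than their main locus. At the 234 positions with 1 main locus, the log2 ratio of the accompanying locus was below that of the main locus in 364 of 563 cases (64.7%), with a median difference of -0.24 and quartiles of -0.61 and 0.23. A pseudocount of 0.1 gave 381 cases (67.7%) and a median of -0.33. Differences of this kind do not depend on scaling between the libraries beyond the effect of the pseudocount. The main loci had a median log2 ratio of 0.09 and the accompanying loci one of -0.24. A main locus with several accompanying loci was counted once for each of them. The lean was not particular to these positions. Among loci alone at their position the median was -0.21 for run 3, 0.08 for run 1 and 0.10 for run 2. At positions with 2 loci it was -0.15 for run 3, 0.05 for run 1 and 0.02 for run 2.

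The position with the most loci held loci that leaned toward either organ. It lay on chromosome 7 from 164784649 to 165016164, spanned 231515 bases and held 10 loci, 5 of run 1, 4 of run 2 and 1 of run 3. Its highest locus in the shoot, at 155 FPKM, was at 18.9 FPKM in the root, an 8.21-fold difference without a pseudocount. The highest locus in the root, at 109 FPKM, was at 38.4 FPKM in the shoot, or 2.84-fold higher in the root. Another locus was at 71.5 FPKM in the shoot and 71.6 FPKM in the root. The other 7 ran from 0.743 to 55.6 FPKM in the shoot and from 1.41 to 47.5 FPKM in the root. The position as a whole was at 394 FPKM in the shoot and 289.9 FPKM in the root. Its 2 highest loci leaned in opposite directions.

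A position on chromosome 6 from 165302789 to 165402653, with 7 loci, had 1 locus apart from the rest. That locus, of run 1, was at 114 FPKM in the shoot and 2.96 FPKM in the root, 38.5-fold higher in the shoot. The remaining 6 were at 2.64 to 41.7 FPKM in the shoot and 2.73 to 21.4 FPKM in the root, and their log2 ratios lay between -1.05 and 0.27. Between the numbers of these loci 3 locus numbers were skipped in the table. Over all 367 positions 17 numbers were skipped in this way, at 9 positions, against 1 at the 1901 positions with 2 loci. Skips were counted only between loci of the same run. A position with 2 loci of different runs could therefore show none, so these counts are not on equal terms.

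At another crowded position the loci leaned together. On chromosome 8 from 53818323 to 53874645, all 7 loci were higher in the shoot. The 2 main loci, one of run 2 and one of run 1, were at 89.2 and 43.8 FPKM in the shoot and 8.48 and 3.70 FPKM in the root. The 5 loci of run 3 were at 1.15 to 2.54 FPKM in the shoot and 0.0977 to 0.166 FPKM in the root. Without a pseudocount the 7 loci were 10.4-fold to 17.4-fold higher in the shoot, a narrow band for levels that differ so much. The loci were less alike on chromosome 5 from 4502627 to 4517433, where 1 locus of run 1 stood with 7 of run 3 in 14806 bases. The main locus was at 22.7 FPKM in the shoot and 7.71 FPKM in the root, a 2.94-fold difference, while the run 3 loci were at 1.43 to 3.93 FPKM in the shoot and 1.15 to 2.55 FPKM in the root and differed between the tissues by 1.75-fold at most. Of these 7, 6 were higher in the shoot, and 1 was at 1.91 FPKM in the shoot and 1.99 FPKM in the root.

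**Figure D5:**
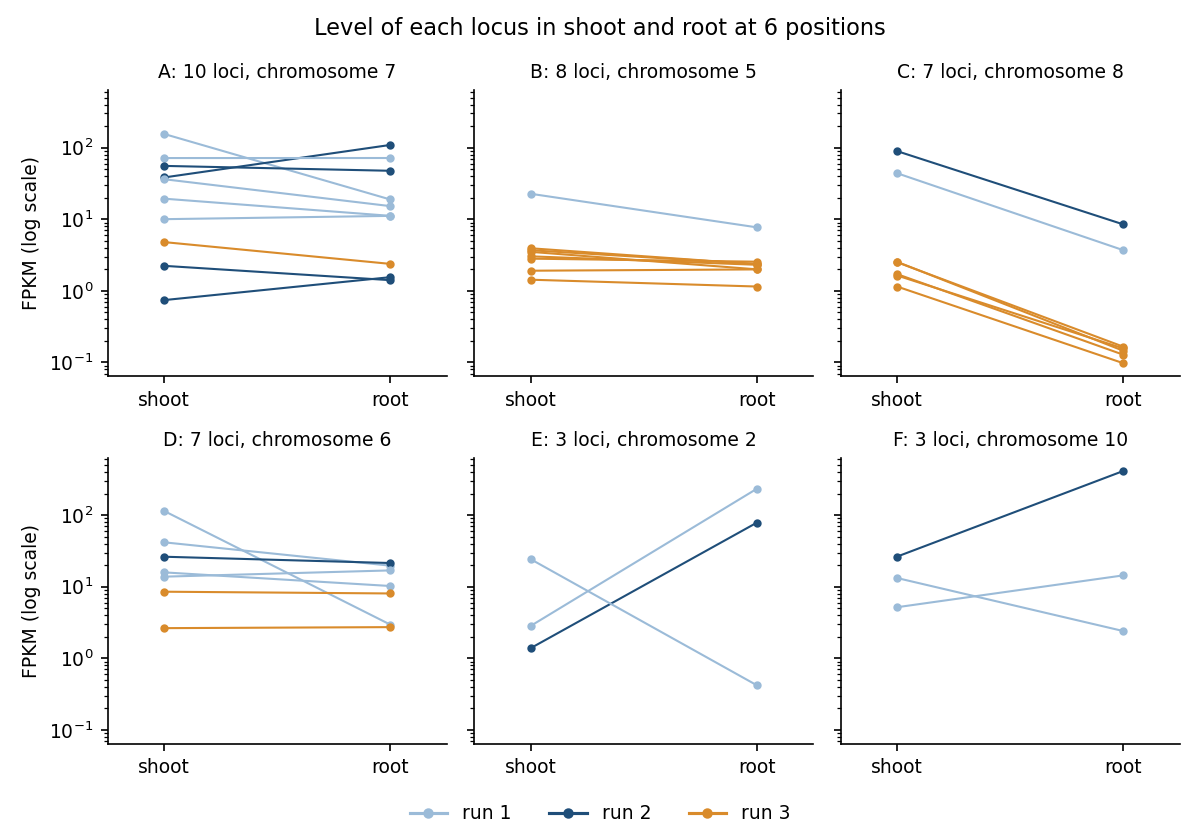
FPKM (log scale) of every locus in the shoot and root at 6 positions, with 1 line per locus coloured by run. The positions lie on chromosome 7 from 164784649 (A), chromosome 5 from 4502627 (B), chromosome 8 from 53818323 (C), chromosome 6 from 165302789 (D), chromosome 2 from 230640259 (E) and chromosome 10 from 140145478 (F); all 7 lines of C go down toward root, while lines cross in E and F.

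Loci called in opposite directions shared a position in 2 cases, both with 3 loci and without run 3. The first, on chromosome 2 from 230640259 to 230860627, spanned 220368 bases. One locus of run 1 was at 2.84 FPKM in the shoot and 233 FPKM in the root, 82.0-fold higher in the root. A locus of run 2 was at 1.39 and 78.4 FPKM, 56.4-fold higher in the root. The other locus of run 1 was at 24.2 FPKM in the shoot and 0.421 FPKM in the root, 57.4-fold higher in the shoot. The case on chromosome 10, from 140145478 to 140185760, spanned 40282 bases. Its run 2 locus was at 26.4 FPKM in the shoot and 414 FPKM in the root, 15.7-fold higher in the root, and its run 1 loci at 5.18 and 13.2 FPKM in the shoot and 14.4 and 2.41 FPKM in the root. Among positions with 2 loci there were also 2 such cases, out of 1901. Such a position holds only 1 pair of loci that can be called in opposite directions, so the counts are not on equal terms.

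Loci also differed widely at positions without opposite calls. On chromosome 6 from 118852457 to 118870248, the run 1 locus was at 87.7 FPKM in the shoot and 0.934 FPKM in the root, 93.9-fold higher in the shoot. Both run 2 loci were nearly equal in the tissues, at 14.3 and 10.05 FPKM in the shoot and 13.9 and 9.46 FPKM in the root. On chromosome 4 from 4429758 to 4550876, 1 of 6 loci was at 14.8 FPKM in the shoot and 202 FPKM in the root, 13.6-fold higher in the root. The other 5, 4 of run 1 and 1 of run 2, were at 1.61 to 14.7 FPKM in the shoot and 0.412 to 12.1 FPKM in the root, and their log2 ratios lay between -1.39 and 1.55. On chromosome 2 from 80813102 to 80870779, a run 2 locus at 5.03 FPKM in the shoot and 0.0471 FPKM in the root shared its position with a run 3 locus at 0.721 and 3.69 FPKM. The log2 ratios of the 8 loci there ran from -2.53 to 1.45.

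Summed over its loci, a position was called higher in the shoot in 22 cases (5.99%), against 7.01% of all positions of chromosomes 1 to 10, and higher in the root in 7 (1.91%), against 3.65%. At 25 of these 29 positions every locus was on the side of the sum, and at 27 the highest locus was itself called. Called loci were found at 57 of the 367 positions (15.5%), beside 265 of the 1901 positions with 2 loci (13.9%), which have fewer loci to be called. By locus, 4.49% were higher in the shoot and 1.86% in the root at crowded positions. At positions with 2 loci these shares were 5.58% and 2.71%. At 30 of the 57 the sum was not called. Of the 82 called loci, 34 were the highest of their position, as were 367 of all 1291 loci. Every locus was called at 3 positions (0.817%), beside 50 of those with 2 loci (2.63%), where fewer loci need to be called.

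The largest summed difference toward shoot was on chromosome 7 from 4307324 to 4373654, where all 3 loci were of run 2. They were at 4103, 498 and 21.5 FPKM in the shoot and all listed at 0 in the root. No fold is given, because a listed 0 can be a failed estimate. The distance of 7.51 between its lowest and highest log2 ratio follows from the levels in the shoot only. On chromosome 9 from 107838387 to 107841891, the main locus was at 15.1 FPKM in the shoot and 0.188 FPKM in the root, and 3 run 3 loci at 1.95 to 3.45 FPKM in the shoot were listed at 0 in the root. Loci listed at 0 were rare over the whole set, with 12 of 1291 in the root and 2 in the shoot.

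Further positions toward shoot had values above 0 in the root throughout or nearly so. On chromosome 1 from 299559037 to 299651443, the run 2 locus was at 219 FPKM in the shoot and 9.69 FPKM in the root, 22.6-fold higher in the shoot, while its partners were 1.91-fold and 1.76-fold higher. On chromosome 1 from 2736629 to 2750406, all 3 loci were called, at 31.9, 14.8 and 11.9 FPKM in the shoot and 2.45, 1.04 and 0.325 FPKM in the root. On chromosome 4 from 56433542 to 56446953, a run 1 locus at 10.6 FPKM in the shoot and 0.662 FPKM in the root stood with 4 run 3 loci at 1.72 to 4.28 FPKM in the shoot, 1 of them listed at 0 in the root and the others at 0.0267 to 0.0674 FPKM.

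Toward root, the largest summed differences were at the 2 positions with opposite calls. Next came a position on chromosome 9 from 20608153 to 20694968, whose loci were at 20.0, 7.67 and 5.91 FPKM in the shoot and 210.5, 56.9 and 24.4 FPKM in the root, or 10.5-fold, 7.41-fold and 4.14-fold higher in the root. On chromosome 4 from 202423368 to 202440404, a run 1 locus was at 6.10 FPKM in the shoot and 35.5 FPKM in the root, and its run 3 partners were at 0.852 and 0.508 FPKM in the shoot and 6.20 and 5.44 FPKM in the root. On chromosome 3 from 221793237 to 221862507, 3 low loci were at 0.322 to 0.646 FPKM in the shoot and 3.78 to 5.26 FPKM in the root, and their log2 ratios differed by 0.15 at most.

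The highest summed levels belonged to positions of several arrangements. On chromosome 6 from 153309401 to 153504136, 4 loci reached 1502 FPKM in the shoot and 3414 FPKM in the root. The 3 highest, of runs 2, 2 and 3, were 2.27-fold, 2.84-fold and 2.18-fold higher in the root, whereas the fourth, of run 1, was at 30.5 FPKM in the shoot and 25.6 FPKM in the root. This position and the one dominated by a run 3 locus on the same chromosome lay within the same megabase and leaned toward different organs. On chromosome 6 from 6888358 to 7059791, the highest locus was at 985 FPKM in the shoot and 1370 FPKM in the root, and the second, of the same run, at 175 and 111 FPKM. On chromosome 1 from 204898448 to 205103224, 1 of 7 loci was at 1052 FPKM in the shoot and 1312 FPKM in the root and held 96.2% of the level, with partners from 0.724 to 19.4 FPKM in the shoot.

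The highest locus changed between the tissues at 53 positions. On chromosome 6 from 141667168 to 141689904, the run 1 locus led in the shoot with 282 FPKM against 70.7 FPKM of a run 3 locus, and trailed it in the root with 42.7 FPKM against 53.7 FPKM. On chromosome 9 from 87256639 to 87261237, the leading run 2 locus was at 106 FPKM in the shoot and 76.9 FPKM in the root, and a run 3 locus at 62.2 and 77.3 FPKM. Their levels nearly coincided in the root.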

How the data were processed

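Polyadenylated RNA of shoots and roots was sequenced as 1 paired-end library per tissue, with a kit that does not record strand, per the labels' protocols. The deposited values are FPKM per assembled locus, as made by the authors. The submitters' processing notes name TopHat, Cufflinks and Cuffdiff. Versions, settings and the handling of reads with several matches were not given in the sources used. Per the file headers, the build is B73 RefGen_v2. Column names identified the samples, and 0 columns were left over. Over 29674 loci, the higher of the 2 tissue values was never under 1.00022 FPKM.

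Loci were grouped by identical position, and a run of locus numbers began where the start fell back by more than 10000 bases. Ratios used a pseudocount of 1 and calls a 4-fold ratio. Fragments per FPKM were fitted to loci alone at their position, with spans of 300 to 2000 and FPKM times span under 70. Positions were named, up to a fixed number of each, for most loci, sum, span, opposite calls, ratio distance, share, summed ratio or a changed highest locus. The positions were chosen with earlier results of these data known, and the runs and the nearest position were compared after the values were seen. The grouping and the fragment fit were tested on simulated data. Alternatives were pseudocounts of 0.1 and 5, folds of 2 and 8, a minimum of 4 loci, omission of loci at 0 or under 5 FPKM, and division of root by its median ratio. Work was done in Python 3.11.15 (numpy 2.4.6, pandas 2.3.3, scipy 1.17.1, with plots by matplotlib 3.10.9). No genome of this build was used here, and no sequence is shown.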

Additional observations from a re-analysis of the deposited data

How the results depend on the processing

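Results moved mainly with the thresholds. With 4 or more loci per position, 112 positions with 526 loci remained by construction. They had a median highest share of 57.5%, 51 positions on one side, 0 opposite calls and a median span of 16358 bases. The median ratio distance was 1.22, a measure that can only widen as loci are added to a position. Of the 526 loci, 26 (4.94%) were higher in the shoot (background 6.79%) and 10 (1.90%) in the root (3.52%). These shares were near those of the main setting, 4.49% and 1.86%. With a pseudocount of 0.1 the distance was 1.12, opposite calls 6, and 131 loci were higher in the shoot (background 10.9%) and 52 in the root (6.38%). With one of 5 these were 0.57, 1, 27 (3.61%) and 10 (1.40%). At 2-fold there were 10 opposite calls, 209 loci higher in the shoot (background 15.0%) and 117 in the root (11.9%), and at 8-fold 1, 23 (3.50%) and 8 (1.28%). Without loci under 5 FPKM in both tissues, 117 positions were left, with a share of 61.3%, 65 positions on one side and 30 of 398 loci (7.54%) higher in the shoot (background 8.82%). Under that filter the median ratio distance was 0.92 and the opposite calls were 2, both near the main values. The 17 loci higher in the root stayed within 1.5 times only as a count. Their share went from 1.86% of 1291 loci to 4.27% of 398 (background 4.59%). All values without loci listed at 0 or with root divided by 1.07 stayed within 1.5 times or within the interval of the median. More loci were higher in the shoot than in the root under all these settings. No paired analysis was possible because there is only 1 library of each tissue, and for the same reason none could be left out. Shared reads between loci of a position, and the lengths of their transcripts, limit every level given.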

Other observations

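One position with 5 loci lay on sequence that the assembly does not place on a chromosome and was therefore not counted. It ran from 6213919 to 6224320 and held 2 loci of run 1 and 3 of run 3. The highest locus was at 42.4 FPKM in the shoot and 1.76 FPKM in the root. The other 4 were at 1.06 to 2.43 FPKM in the shoot and 0.0339 to 0.212 FPKM in the root, so all 5 were higher in the shoot. With log2 ratios from -3.97 to -0.77, 1 of the 5 was past the 4-fold call.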
